A study of Mus musculus with 8 samples.

Results

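The transcripts of 37 genes of the autophagy machinery were followed in the mouse hypothalamus after acute hypoxia. They were taken by symbol from a list that runs from the initiation kinases to the lysosomal membrane proteins, and all 37 were found among the 55487 genes of the count table. All 37 also passed the filter on low counts, within 17047 genes tested. Their counts ran from 163 to 10559 reads per gene and library.

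Macroautophagy is the process by which a cell wraps cytoplasm in a double membrane and delivers it to the lysosome. A kinase complex built around ULK1 starts the membrane, a lipid kinase complex built around VPS34 marks it, lipid transfer proteins enlarge it, and a ubiquitin-like conjugation system fixes LC3 and GABARAP proteins to it. Cargo receptors bind these proteins, and lysosomes complete the breakdown. Neurons depend on this turnover, and in many cell types low oxygen is known to engage it.

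The hypoxia group was 4 C57BL/6J mice exposed to 7% oxygen for 2 hours, and the normoxia group was 4 C57BL/6J mice kept at 21% oxygen and sampled after the same time. No age, genetic change or drug is given for either group, and all mice were housed under the same light cycle with free access to food and water. Polyadenylated RNA of the hypothalamus was sequenced with a strand-specific kit, 1 library per replicate. The series' design describes biological replicates, 4 to a group.

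Total counts were 16994473 to 21694383 per library, and a difference in depth between the groups was not detected (two-sided exact permutation p = 0.743). Of 12 hypothalamic marker genes, 11 passed the filter on low counts, and Kiss1 was the exception. Normoxia replicate 2 stood apart from the other libraries. Its summed level of the hypothalamic markers was 401 CPM (read counts per 1e6 counts of the library, scaled by TMM), against 706 to 836 CPM in hypoxia and 590 to 844 CPM in the other normoxia libraries. Its summed level of 8 cortex and hippocampus markers was 1732 CPM, against 746 to 942 CPM in hypoxia and 650 to 846 CPM in the other normoxia libraries. Hypoxia replicate 4 had 602 CPM summed over 10 genes that respond to low oxygen, against 835 to 880 CPM in the other hypoxia libraries. The sum was 404 to 459 CPM in normoxia, and these 10 genes were chosen with results of these data known.

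Among the autophagy genes a single one, Atg4d, passed the test. Of the 37, 1 was called lower and 0 were called higher by edgeR's quasi-likelihood test, where a call is a Benjamini-Hochberg adjusted p under 0.05. Of the whole set tested, 2.15% were called, 0.915% higher and 1.23% lower, so the 2.70% of autophagy genes called stands near the background. Atg4d encodes an LC3-processing protease. At an unadjusted p under 0.05 there were 4 of 37, against 19.3% of all genes tested. The DESeq2 Wald test also called 1 lower and 0 higher, where it called 5.91% of all genes. limma-voom called the same numbers of autophagy genes, where it called 2.44% of all genes. The median log2 change was −0.02 over the 37 genes and −0.01 over all genes tested, with 15 genes above 0 and 22 below.

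The levels of these genes were measured closely enough to bound the change. For all 37 the 95% interval of the fold change lay inside 1.5-fold in either direction, and for 23 the log2 change itself was under 0.1 in size. The median standard error was 0.06 on the log2 scale, against 0.11 over all genes tested, and the median level was 73.5 CPM against 19.8 CPM. In the same libraries Vegfa, which encodes a vascular growth factor induced by low oxygen, was 2.44-fold higher in hypoxia. In 4 of the 37 genes, or 10.8%, the libraries of the 2 groups did not overlap, where this held for 13.4% of all genes tested, 5.69% with hypoxia higher and 7.75% with hypoxia lower. These were Wipi2, Gabarapl1 and Gabarapl2, higher in every hypoxia library, and Atg4d, lower in every hypoxia library.

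**Figure D1:**
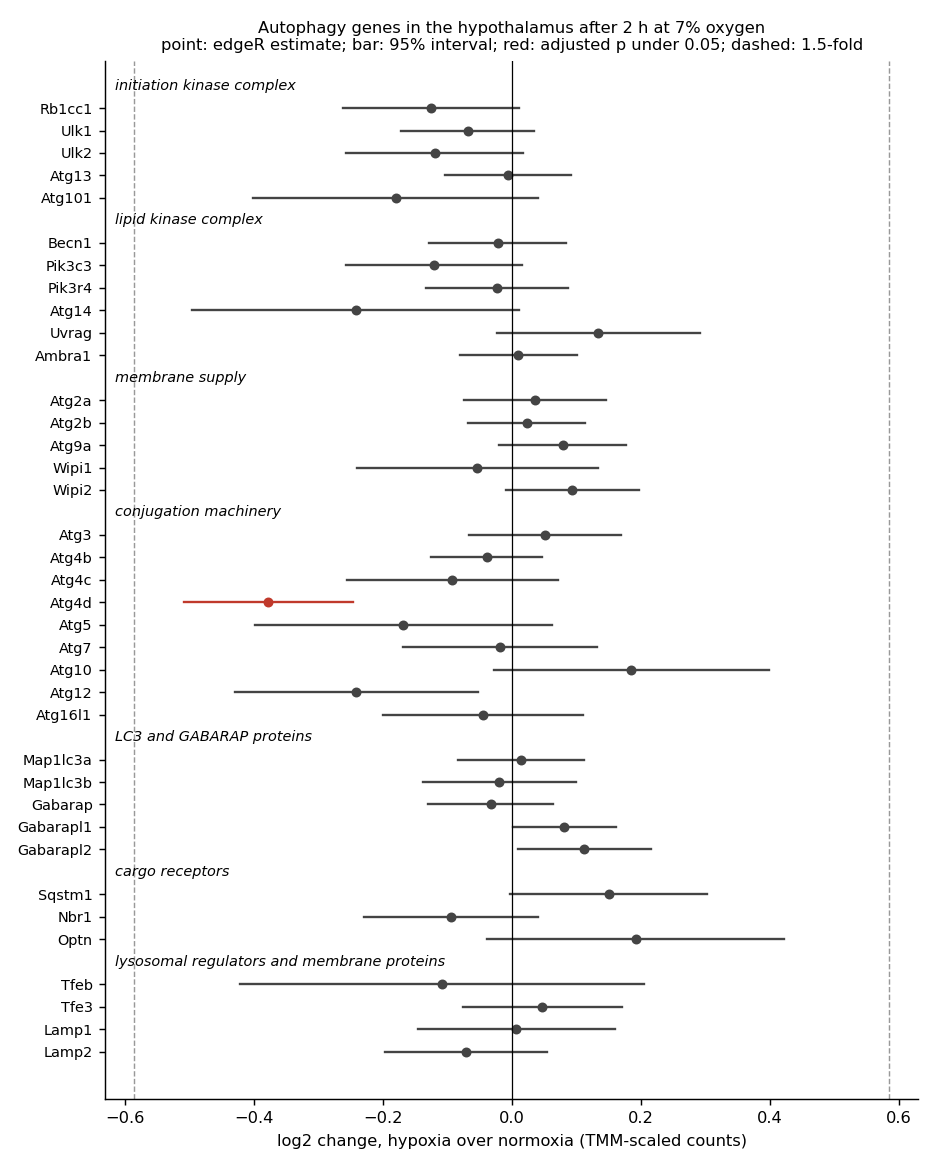
Log2 change of each of the 37 autophagy genes, hypoxia over normoxia (horizontal axis, edgeR estimate with its 95% interval; 4 libraries a group), in blocks by role. Atg4d, in red at −0.38, is the gene with an adjusted p under 0.05, and every interval lies inside the dashed lines at a 1.5-fold change.

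Atg4d belongs to the ATG4 family of cysteine proteases, which trim new LC3 and GABARAP proteins before conjugation and release them from membranes later. It lies on chromosome 9 (21265293 to 21277772, plus strand, mm10). Listed here and below from replicate 1 to 4, the hypoxia libraries had 19.4, 19.7, 19.5 and 19.6 CPM and the normoxia libraries had 25.1, 27.2, 24.9 and 24.5 CPM. Every hypoxia library was below every normoxia library, and the highest value was that of normoxia replicate 2. The means were 19.6 ± 0.131 CPM in hypoxia and 25.4 ± 1.23 CPM in normoxia (SD, n = 4 per group). This is a log2 change of −0.38 ± 0.06 (SE; edgeR quasi-likelihood, adjusted p = 0.0213), or 23.0% less. These libraries came from whole tissue, so fewer cells of a type and less RNA per cell cannot be told apart.

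The call of Atg4d did not hold with every library left out, although its size did. Atg4d was called when hypoxia replicate 4 was left out (adjusted p = 0.0209) and when normoxia replicate 2 was left out (adjusted p = 0.017). Leaving out any 1 of the other 6 gave an adjusted p of 0.0645 to 0.101. Across these 8 fits its log2 change ran from −0.39 to −0.34. The 4 hypoxia values lay closer together than counting alone would give, since counts of 370 to 403 reads carry a counting error of 0.989 CPM. Exons of Kri1, on the opposite strand, cover 19.3% of the exon length of Atg4d. If strand was not used in counting, reads from this stretch may have been mixed or left out. Kri1 itself was at 31.7 ± 2.09 CPM in hypoxia and 32.9 ± 1.77 CPM in normoxia (SD, n = 4 per group), a log2 change of −0.05.

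**Figure D2:**
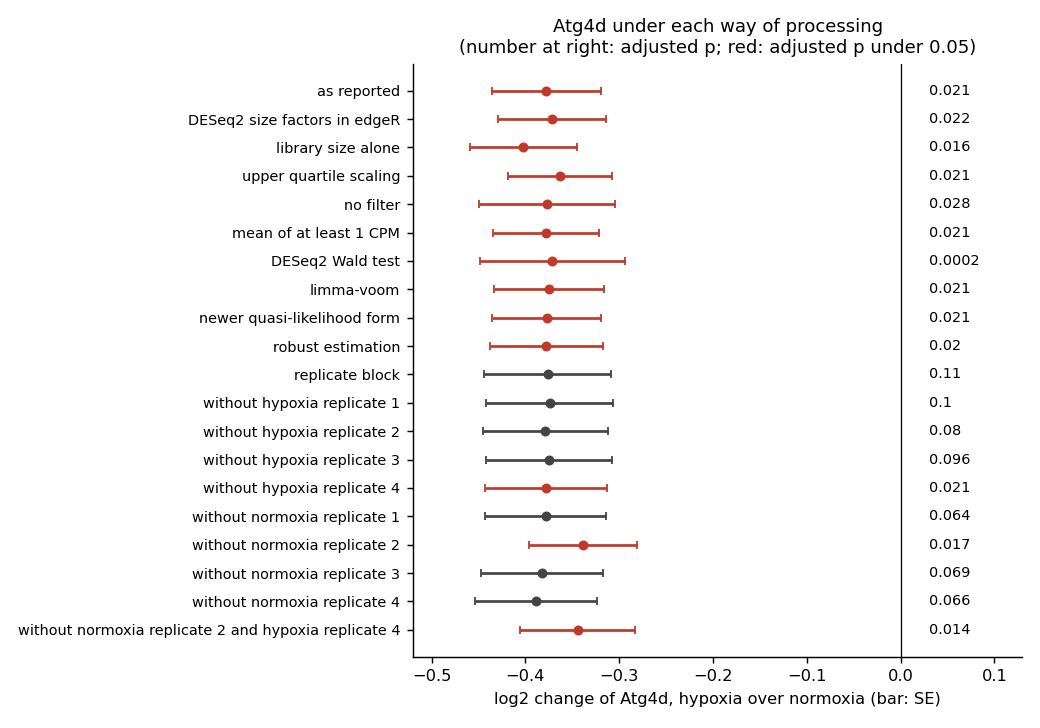
Log2 change of Atg4d with its standard error under each way of processing and with libraries left out; the number at the right is the adjusted p, in red points under 0.05. The estimate stays between −0.40 and −0.34 while the adjusted p moves to both sides of the threshold.

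The other proteases of the family were not called. Atg4b, the most abundant in CPM, had a log2 change of −0.04 (95% interval −0.13 to 0.05) and Atg4c one of −0.09 (−0.26 to 0.07). Atg4a, which was not among the 37, had 0.33 (adjusted p = 0.259) at 6.39 to 9.42 CPM in hypoxia and 5.45 to 7.39 CPM in normoxia, and its reads may be shared with the gene copy Atg4a-ps. Of the CPM summed over the 4 proteases, Atg4d took 14.3 ± 0.135% in hypoxia and 17.5 ± 1.13% in normoxia, and Atg4b took 54.1 ± 1.17% in hypoxia and 52.4 ± 1.21% in normoxia (SD, n = 4 per group). Whether the change of Atg4d differs from those of its paralogs was not tested.

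The stretches upstream of Atg4d and of the other 3 genes whose groups did not overlap are shown with that of Atg4b, the paralog of Atg4d that was not called. The set of RefSeq stretches used here held 31 of the 37 genes. Each runs from 250 bases before the annotated start to 50 after it (GRCm38.p6, 5′ to 3′ on the strand of the gene). Capitals mark ACGTG or GCGTG on either strand, the core letters of the sites that hypoxia-inducible factors bind.
Atg4d: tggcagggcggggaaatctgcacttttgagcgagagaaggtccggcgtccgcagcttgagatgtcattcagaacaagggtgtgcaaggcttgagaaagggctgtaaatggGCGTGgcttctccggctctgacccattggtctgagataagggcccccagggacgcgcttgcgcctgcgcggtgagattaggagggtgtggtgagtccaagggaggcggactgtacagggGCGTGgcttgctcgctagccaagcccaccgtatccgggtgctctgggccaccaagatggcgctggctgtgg
Atg4b: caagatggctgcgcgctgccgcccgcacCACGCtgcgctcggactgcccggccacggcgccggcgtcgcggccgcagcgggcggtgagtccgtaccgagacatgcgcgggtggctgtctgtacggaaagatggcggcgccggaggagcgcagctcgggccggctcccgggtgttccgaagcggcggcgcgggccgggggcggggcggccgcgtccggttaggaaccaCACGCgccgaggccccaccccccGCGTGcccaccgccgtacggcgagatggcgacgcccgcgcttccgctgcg
Wipi2: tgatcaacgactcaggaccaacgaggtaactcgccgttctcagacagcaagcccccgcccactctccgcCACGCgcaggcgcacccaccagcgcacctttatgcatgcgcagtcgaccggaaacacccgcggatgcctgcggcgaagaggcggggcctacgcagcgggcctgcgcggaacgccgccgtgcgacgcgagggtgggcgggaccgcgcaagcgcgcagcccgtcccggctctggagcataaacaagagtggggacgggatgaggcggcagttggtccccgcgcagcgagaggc
Gabarapl1: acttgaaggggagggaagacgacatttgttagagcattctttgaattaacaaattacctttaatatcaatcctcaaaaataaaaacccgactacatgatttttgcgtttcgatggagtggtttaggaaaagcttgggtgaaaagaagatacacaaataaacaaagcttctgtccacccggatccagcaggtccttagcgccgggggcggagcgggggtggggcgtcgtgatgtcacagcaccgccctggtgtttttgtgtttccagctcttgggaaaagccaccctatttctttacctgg
Gabarapl2: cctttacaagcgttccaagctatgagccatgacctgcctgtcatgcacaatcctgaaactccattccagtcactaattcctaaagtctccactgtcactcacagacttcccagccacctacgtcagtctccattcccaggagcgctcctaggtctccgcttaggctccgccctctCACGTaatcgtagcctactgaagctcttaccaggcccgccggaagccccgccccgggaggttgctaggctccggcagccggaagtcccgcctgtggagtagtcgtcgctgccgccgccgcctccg
Atg4d lies at chr9:21265035-21265334, Atg4b at chr1:93754655-93754954, Wipi2 at chr5:142629334-142629633, Gabarapl1 at chr6:129532942-129533241 and Gabarapl2 at chr8:111940453-111940752, all on the plus strand. The Atg4d stretch holds GCGTG at 2 places and that of Atg4b at 3, while Wipi2 has 1, Gabarapl2 has ACGTG once and Gabarapl1 has neither. Such short words are common: GCGTG stands in 32.4% of all 32851 RefSeq stretches of this length. It stands in 24 of the 36 (66.7%) that belong to the 31 autophagy genes. ACGTG stands in 19.6% of all and in 14 of the 36 (38.9%). These shares were higher among the autophagy genes, and the part of base composition was not tested. G and C make up 78% of the Atg4b stretch and 46.3% of that of Gabarapl1. The core of the lysosomal gene motif read by TFEB is CACGTG, which contains ACGTG. It stands in 7.15% of all stretches and in 5 of the 36 (13.9%), those of Atg3, Atg5, Atg7, Atg14 and Lamp1. Their log2 changes were 0.05, −0.17, −0.02, −0.24 and 0.01, and none was called.

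Conjugation fixes ATG12 to ATG5 and LC3 to lipid. Of the 9 genes of this machinery, 1 was lower, 0 were higher and the median log2 change was −0.05. Atg12, whose product is the first ubiquitin-like protein of the system, was at 56.9, 57.4, 51.3 and 64.3 CPM in hypoxia and at 67.7, 77.1, 63.4 and 63.4 CPM in normoxia. Hypoxia replicate 4 reached into the normoxia range, and normoxia replicate 2 was the highest of the 8. Its log2 change was −0.24 ± 0.08 (SE; edgeR quasi-likelihood, adjusted p = 0.16), and it was called without normoxia replicate 2 and hypoxia replicate 4 together (adjusted p = 0.0454).

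The enzymes and scaffold around ATG12 and LC3 gave small values. Atg7, which encodes the activating enzyme, had a log2 change of −0.02. Atg3 and Atg10, for the enzymes that carry LC3 and ATG12, had 0.05 and 0.19. Atg5 had −0.17, and hypoxia replicate 1 was lowest at 17.2 CPM against 20.5 to 22.6 CPM in the other hypoxia libraries. Atg16l1, the scaffold that places the conjugating complex on the membrane, had −0.05, and 0.03 without normoxia replicate 2.

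**Figure D3:**
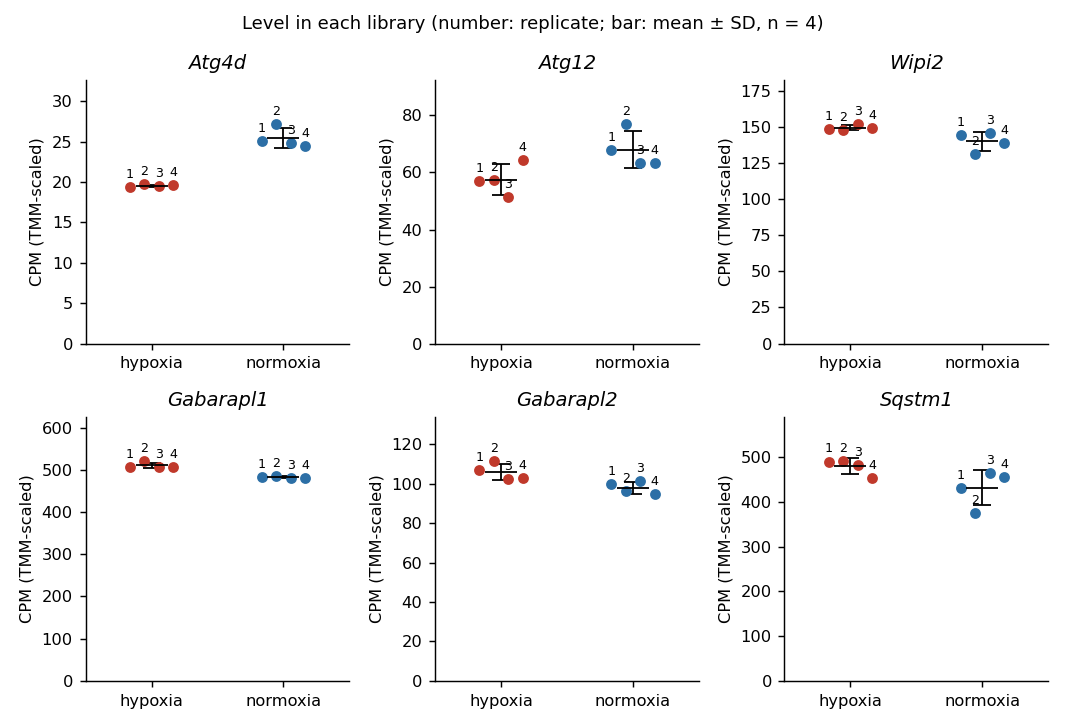
Level of 6 autophagy genes in each library (vertical axes, TMM-scaled CPM from 0; numbers give the replicate; black bars the mean and SD, n = 4 a group). Atg4d is lower, and Wipi2, Gabarapl1 and Gabarapl2 are higher, in every hypoxia library, while the groups overlap for Atg12 and Sqstm1.

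The LC3 and GABARAP proteins are the small ubiquitin-like tags of the autophagosome membrane, to which cargo receptors bind. None of the 5 genes was called, and the median log2 change was 0.01. Gabarapl1, the most abundant, was at 506, 521, 508 and 507 CPM in hypoxia and at 482, 486, 481 and 479 CPM in normoxia. The groups did not overlap, and the values within each lay within a narrow band. Its log2 change was 0.08 ± 0.04 (SE; edgeR quasi-likelihood, adjusted p = 0.252), or 5.81% more. An uncharacterised transcript on the opposite strand, 1700101I11Rik, overlaps 28.3% of its exon length and was at 0.932 ± 0.235 CPM in hypoxia and 0.749 ± 0.299 CPM in normoxia (SD, n = 4 per group).

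Gabarapl2 had 107, 111, 102 and 103 CPM in hypoxia and 99.8, 96.2, 101 and 94.8 CPM in normoxia. The groups again did not overlap, by a gap of about 1 CPM. Its log2 change was 0.11 ± 0.05 (SE; edgeR quasi-likelihood, adjusted p = 0.221). Map1lc3a, Map1lc3b and Gabarap had 0.01, −0.02 and −0.03, and the sign of the first 2 changed with a scaling or a library left out. Per kilobase of the longest principal transcript, Gabarapl1 was at 280.4 CPM in hypoxia and 265 CPM in normoxia, the highest of the 37 genes in both groups. Map1lc3a followed in this family at 92.5 CPM per kilobase in hypoxia and 91.6 in normoxia. Gabarap had 87.3 CPM per kilobase in hypoxia and 89.3 in normoxia, and Map1lc3b had 61.8 in hypoxia and 62.6 in normoxia. Gabarapl2 had 63.2 CPM per kilobase in hypoxia and 58.4 in normoxia. Of the CPM summed over the family, Gabarapl1 took 51.4 ± 0.584% in hypoxia and 50.2 ± 0.483% in normoxia (SD, n = 4 per group).

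Initiation starts with the ULK complex, in which ULK1 or ULK2 phosphorylates targets together with ATG13, ATG101 and the scaffold FIP200, the product of Rb1cc1. None of its 5 genes was called. All 5 had a negative log2 change, with a median of −0.12, but Atg13 (−0.01) turned positive under DESeq2's size factors and upper quartile scaling. Rb1cc1 was at 90.8, 99.6, 93.2 and 106 CPM in hypoxia and at 114, 105, 101 and 106 CPM in normoxia. Hypoxia replicate 4 lay inside the normoxia range. Its log2 change was −0.13 ± 0.06 (SE; edgeR quasi-likelihood, adjusted p = 0.293).

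Ulk2 had 100.4, 97.8, 95.4 and 105 CPM in hypoxia and 109, 118, 97.7 and 108 CPM in normoxia. Normoxia replicate 3 lay within the hypoxia range. Ulk2 had a log2 change of −0.12 ± 0.06 (SE; edgeR quasi-likelihood, adjusted p = 0.318), and Ulk1 one of −0.07. Atg101 had −0.18 at 12.5 to 18.1 CPM, with normoxia replicate 2 the highest.

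The lipid kinase complex makes the phosphatidylinositol 3-phosphate that recruits later factors. Of its 6 genes none was called, and the median log2 change was −0.02. Atg14, the subunit that directs the complex to autophagy, was at 19.1, 18.6, 16.9 and 23.3 CPM in hypoxia and at 21.0, 26.7, 22.2 and 22.2 CPM in normoxia. The 2 extremes were hypoxia replicate 3 and normoxia replicate 2, and hypoxia replicate 4 lay above 3 of the 4 normoxia libraries. Its log2 change was −0.24 ± 0.11 (SE; edgeR quasi-likelihood, adjusted p = 0.276).

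Pik3c3, which encodes the catalytic kinase VPS34, had 45.8, 49.9, 46.5 and 48.1 CPM in hypoxia and 54.3, 55.4, 48.0 and 49.1 CPM in normoxia. The groups overlapped between 48.0 and 49.9 CPM. This gave a log2 change of −0.12 ± 0.06 (SE; edgeR quasi-likelihood, adjusted p = 0.312). Becn1, for the scaffold Beclin 1, Pik3r4, for the regulatory subunit, and Ambra1, for a Beclin 1 partner, had −0.02, −0.02 and 0.01. Uvrag, whose product takes the place of ATG14 in endosomal complexes, had 0.13 (adjusted p = 0.329).

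Membrane supply rests on ATG9 vesicles, the ATG2 lipid channels and the WIPI proteins that read phosphatidylinositol 3-phosphate. None of the 5 genes was called, and the median log2 change was 0.04. Wipi2, which recruits ATG16L1, was at 149, 148, 152 and 149 CPM in hypoxia and at 144, 131, 146 and 139 CPM in normoxia. The groups did not overlap, and normoxia replicate 2 was the lowest. For Wipi2 the log2 change was 0.09 ± 0.05 (SE; edgeR quasi-likelihood, adjusted p = 0.297), and 0.07 without normoxia replicate 2.

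Atg9a, for the scramblase carried by ATG9 vesicles, had 69.8, 64.7, 67.3 and 69.4 CPM in hypoxia and 63.7, 66.0, 62.4 and 64.8 CPM in normoxia. Hypoxia replicate 2 lay within the normoxia range. The log2 change was 0.08 ± 0.04 (SE; edgeR quasi-likelihood, adjusted p = 0.357). An annotated transcript on the same strand, Gm29253, overlaps 31.8% of its exon length. Atg2a, Atg2b and Wipi1 had 0.04, 0.02 and −0.05.

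Cargo receptors tie ubiquitinated cargo to LC3 and GABARAP. None of the 3 genes was called, and the median log2 change was 0.15. Sqstm1, which encodes p62, was at 490, 491, 482 and 453 CPM in hypoxia and at 430, 376, 464 and 456 CPM in normoxia. Normoxia replicate 2 was far below the rest, and hypoxia replicate 4 was below 2 normoxia libraries. The log2 change was 0.15 ± 0.07 (SE; edgeR quasi-likelihood, adjusted p = 0.264), and 0.09 without normoxia replicate 2 (adjusted p = 0.241).

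Optn, for optineurin, had 38.0, 37.3, 32.8 and 30.3 CPM in hypoxia and 31.5, 25.2, 32.5 and 31.9 CPM in normoxia. Hypoxia replicate 4 lay inside the normoxia range. Optn had a log2 change of 0.19 ± 0.10 (SE; edgeR quasi-likelihood, adjusted p = 0.339), and 0.12 without normoxia replicate 2. Nbr1 had −0.09.

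TFEB and TFE3 are related transcription factors that raise lysosomal and autophagy genes when they enter the nucleus, and LAMP1 and LAMP2 are the main glycoproteins of the lysosomal membrane. None of these 4 genes was called, and the median log2 change was −0.03. Tfe3 was at 41.5, 40.0, 42.9 and 40.9 CPM in hypoxia and at 37.001, 42.0, 40.2 and 40.8 CPM in normoxia. The groups overlapped, with normoxia replicate 1 the lowest. For Tfe3 the log2 change was 0.05 ± 0.05 (SE; edgeR quasi-likelihood, adjusted p = 0.68).

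Lamp2 had 87.1, 91.0, 83.4 and 84.9 CPM in hypoxia and 97.1, 83.2, 92.6 and 91.0 CPM in normoxia. Normoxia replicate 2 was the lowest of the 8 and normoxia replicate 1 the highest. The log2 change was −0.07 ± 0.06 (SE; edgeR quasi-likelihood, adjusted p = 0.52). Lamp1 had 0.01, with 381 to 426 CPM in hypoxia and 357 to 436 CPM in normoxia. Tfeb had −0.11 at 8.95 to 12.95 CPM in hypoxia and 9.04 to 11.8 CPM in normoxia, and its interval was the widest of the 37, from −0.42 to 0.21.

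**Figure D4:**
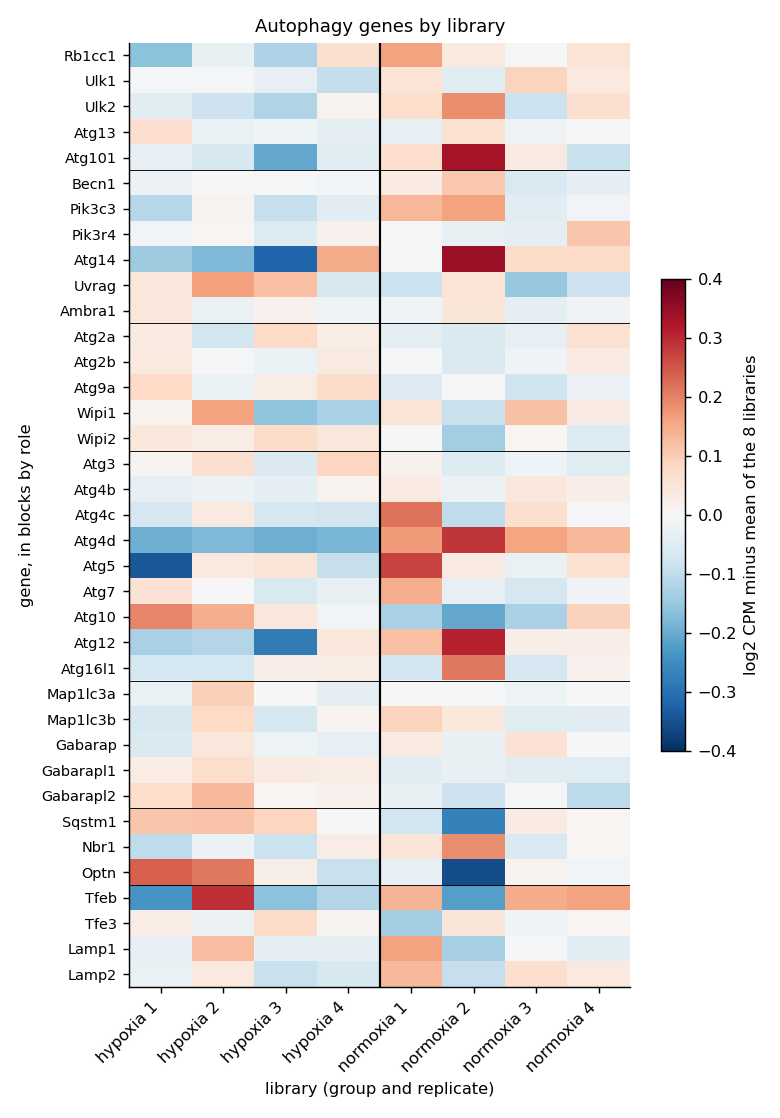
Log2 CPM of each autophagy gene minus its mean over the 8 libraries (colour), with genes in blocks by role and the 4 hypoxia libraries left of the 4 normoxia libraries. Atg4d is below its mean in every hypoxia library and above it in every normoxia library, while the normoxia replicate 2 column holds the highest value of 10 genes and the lowest of 8.

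The spread within groups was small. The coefficient of variation over 4 libraries had a median of 3.87% in hypoxia and 5.38% in normoxia across the 37 genes. Normoxia replicate 2 was the highest of the 8 libraries for 10 of the genes, among them Atg12, Atg14, Atg101 and Atg16l1, and the lowest for 8, among them Sqstm1, Optn and Wipi2. Its cortical and hypothalamic marker sums, given above, moved with these values, and their part in them was not tested. Regional markers leaned one way between the groups, although edgeR called none of them, and 1 thalamic and 1 striatal marker had an unadjusted p under 0.05. The log2 change was negative for 8 of 8 thalamic markers (median −0.39) and 6 of 7 cortex and hippocampus markers tested (median −0.34). It was positive for 8 of 8 striatal markers (median 0.41) and 10 of 11 hypothalamic markers tested (median 0.26). Their sums overlapped between the groups, and their part in the values of the autophagy genes was not tested. The 8 thalamic markers summed to 285 to 421 CPM in hypoxia. In normoxia they summed to 705 CPM in replicate 1 and to 302 to 358 CPM in the other libraries. The 8 striatal markers summed to 673 to 1087 CPM in hypoxia and 388 to 1010 CPM in normoxia. Among cell type markers, edgeR called 1 of 8 for astrocytes (Gjb6, log2 0.34) and 1 of 4 for oligodendrocyte precursors (Pdgfra, 0.26) higher. It also called 1 of 6 for mural cells (Kcnj8, 0.98) higher and 1 of 7 for endothelial cells (Slco1a4, −0.48) lower. No marker of neurons, oligodendrocytes, microglia or ependymal cells and tanycytes was called, where 2.15% of all genes were. What part cell make-up had in the values of the autophagy genes was not tested.

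Genes around the machinery were taken from lists set by gene function, which were chosen with earlier results of these data known. Their counts come from the same fit, in which 2.15% of all genes were called, 0.915% higher and 1.23% lower. Counts from such lists are no independent result. mTORC1 is the kinase complex that restrains autophagy. Of 31 genes for mTORC1, its TSC brake and the energy sensor AMPK, 1 was higher and 1 lower, with a median log2 change of 0.01. Ddit4, which encodes an inhibitor of mTORC1, was at 135, 149, 133 and 71.4 CPM in hypoxia and at 31.0, 55.4, 36.6 and 32.8 CPM in normoxia. Every hypoxia library was above every normoxia library, with hypoxia replicate 4 the lowest of its group. It rose by a log2 of 1.65 ± 0.25 (SE; edgeR quasi-likelihood, adjusted p = 0.021).

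Flcn, for folliculin, which at the lysosome helps mTORC1 to hold TFE3 and TFEB in the cytoplasm, was at 51.0, 46.0, 48.9 and 51.96 CPM in hypoxia and at 60.6, 63.3, 57.9 and 59.3 CPM in normoxia. The groups did not overlap. It fell by 0.28 ± 0.05 on the log2 scale (SE; edgeR quasi-likelihood, adjusted p = 0.0364). With 1 library left out, Ddit4 and Flcn were each called in 2 of 8 fits, with adjusted p up to 0.0886 for Ddit4 and 0.142 for Flcn.

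Of 8 genes for mitophagy receptors and related proteins, 1 was higher, and the median log2 change was 0.05. Bnip3, a mitophagy receptor induced by low oxygen, had 94.6, 105, 109 and 90.4 CPM in hypoxia and 81.8, 73.1, 70.5 and 76.5 CPM in normoxia. Every hypoxia library was above every normoxia library. It rose by a log2 of 0.40 ± 0.07 (SE; edgeR quasi-likelihood, adjusted p = 0.0294) and was called in 2 of 8 fits when libraries were left out singly. Its antisense neighbour Gm45507 overlaps 22.3% of its exon length. Among 8 FOXO factors and FOXO-linked genes tested, Depp1, Txnip and Klf15 were higher by a log2 of 4.71, 1.79 and 0.69. With 1 library left out, Depp1 and Txnip were called in 8 of 8 fits and Klf15 in 2 of 8, with adjusted p up to 0.0963. None of the 8 genes was called lower by edgeR, while the DESeq2 Wald test called 2 lower (3.66% of all genes) and limma-voom 1 (1.47% of all genes).

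No gene was called in the 30 further autophagy genes, the 30 lysosomal enzymes and transporters or the 15 subunits of the V-ATPase, the proton pump that acidifies lysosomes. In these 3 lists 9, 3 and 3 genes had an unadjusted p under 0.05, as had 19.3% of all genes, and edgeR's adjusted p was lowest for Snap29 (0.0754), Npc1 (0.119) and Atp6v0a1 (0.0696). Snap29, a membrane fusion protein, had a log2 change of −0.35, the cholesterol exporter Npc1 one of −0.21 and the pump subunit Atp6v0a1 one of 0.16. The DESeq2 Wald test, which called 5.91% of all genes, called 4 of 30, 0 of 30 and 2 of 15 genes of these lists, Snap29 and Atp6v0a1 among them. limma-voom called 0 in each, where it called 2.44% of all genes. The median log2 changes of the 3 lists were 0.00, −0.01 and 0.06. Of the V-ATPase subunits 12 were positive and 3 negative, and 9 and 6 when libraries were scaled by size alone. Of 10 genes known to be induced by low oxygen, 8 were higher, Ddit4 and Bnip3 among them; this list was chosen with results of these data known and is no independent check.

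**Figure D5:**
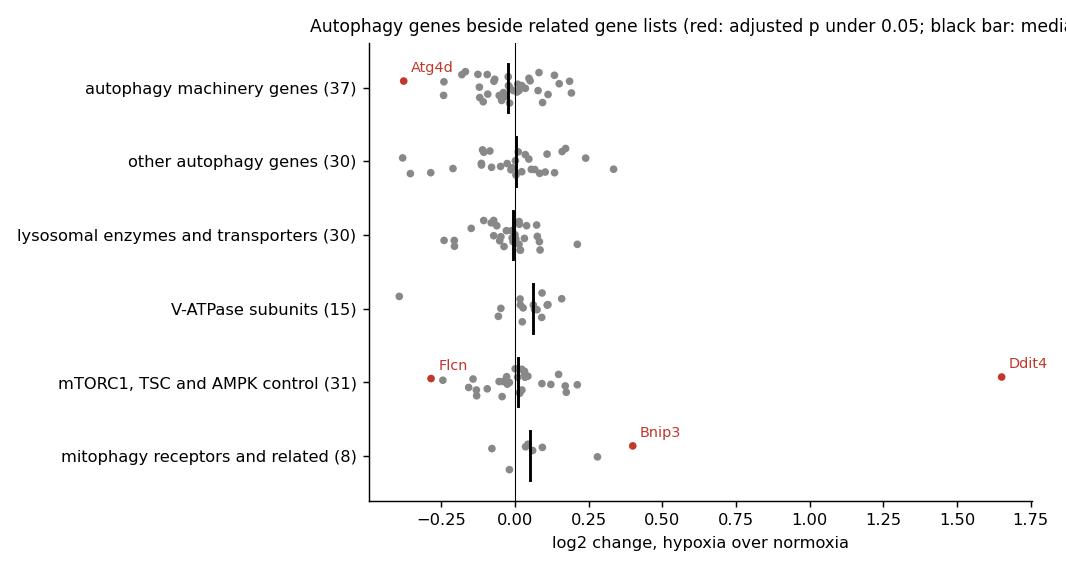
Log2 change, hypoxia over normoxia, of the 37 autophagy genes and of 5 related lists (horizontal axis; 1 point a gene, placed at random in height; number tested in brackets; black bar the median). Genes with an adjusted p under 0.05, in red, are Atg4d, Flcn, Ddit4 and Bnip3.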

How the data were processed

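The authors deposited 1 table of whole-number read counts, with Ensembl genes as rows and libraries as columns, which were tied to samples through their descriptions. Tools listed in the submitters' processing notes are featureCounts, SAMtools, Trimmomatic, HISAT, HISAT2 2.0.4 and DESeq2, with mm10 as the build. How strand and multiply matched reads were handled, and which annotation was used, is not given in the sources used here. Symbols were matched for 55141 genes with a list of gene names. GENCODE M21 (GRCm38), in which 55227 genes were found, gave coordinates, exon lengths and overlaps. Of the 37 genes, 12 share exon sequence with a gene on the opposite strand (Rb1cc1, Becn1, Atg14, Uvrag, Atg2b, Atg9a, Atg4d, Map1lc3b, Gabarapl1, Sqstm1, Optn and Lamp1). Reads from the shared sequence of a pair may have been mixed or left out if strand was not used.

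edgeR 4.0.16 (R 4.3.3) was used for the main test. filterByExpr kept genes (minimum count 10, minimum total 15), TMM scaled libraries, and a quasi-likelihood F test compared the groups with no covariate. The p-values weigh the difference between the groups against the spread between libraries within them. Adjustment was Benjamini-Hochberg over all genes, with calls under 0.05. The test was tried on simulated data. The members, roles and lists were chosen with earlier results of these data known. Every autophagy gene is accounted for. Values in all libraries are given for the gene called and, in a role with none, the 2 with the smallest p, and Atg12 was added after its value was seen. Of each related list, called genes were named, up to 6, or else that with the smallest p. Exceptions are that of the oxygen-response list Vegfa stands for all, and that Atg4a was picked after its value was seen. The upstream stretches of Wipi2, Gabarapl1, Gabarapl2 and Atg4b were also chosen with their values known.

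Replicate numbers are shared by the groups, but no label pairs the mice. Alternatives covered DESeq2 1.42.0, limma-voom of limma 3.58.1, scalings, filters, thresholds, robust estimation, a newer quasi-likelihood form, a replicate block and libraries left out. Sequences are from RefSeq (GRCm38.p6).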

Additional observations from a re-analysis of the deposited data

Results flagged for a closer look

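Within groups of 4, a library standing far from the other 3 was looked for in 57 genes, the autophagy genes and the related genes named, by Dixon's ratio. Chance flags about 1 group in 20, and 10 of 114 groups were flagged. Among the autophagy genes, hypoxia replicate 2 was the highest of its group for Lamp1 (426 CPM against 381 to 382), Gabarapl1 (521 against 506 to 508) and Atg4c (36.8 against 34.1 to 34.3). Normoxia replicate 2 was the lowest of its group for Tfeb (9.04 CPM against 11.6 to 11.8) and Optn (25.2 against 31.5 to 32.5). Among the related genes, normoxia replicate 2 was the lowest for Snap29 (24.9 CPM against 26.8 to 27.1) and Atp6v1b2 (630 against 644 to 646). Hypoxia replicate 4 was the highest for Plekhm1 (35.0 CPM against 26.7 to 27.6) and the lowest for Vegfa (134 against 220.3 to 223) and Adm (2.95 against 8.12 to 9.08).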

How the results depend on the processing

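Of the 37 autophagy genes, 27 kept their direction in all 20 alternatives. The other 10 had a log2 change of at most 0.05 in size, and the cause of each turn was not tested. By library size alone Ambra1 was at −0.0155, Atg2b at −0.00266, Map1lc3a at −0.0115 and Lamp1 at −0.0181. Atg13 was at 0.00039 with DESeq2's size factors, 0.00797 with upper quartile scaling and 0.000668 in the DESeq2 test. With 1 library left out, or with normoxia replicate 2 and hypoxia replicate 4 left out together, the ranges were −0.029 to 0.0256 for Atg13, −0.0396 to 0.0165 for Becn1, −0.0452 to 0.0183 for Pik3r4, −0.00336 to 0.0345 for Ambra1, −0.000519 to 0.0443 for Atg2b, −0.0406 to 0.0345 for Atg7, −0.0732 to 0.0268 for Atg16l1, −0.0134 to 0.0307 for Map1lc3a, −0.0466 to 0.0131 for Map1lc3b and −0.0314 to 0.0696 for Lamp1.

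Leaving out 1 library gave 0 or 1 autophagy genes lower and 0 higher, a median log2 change of −0.0303 to −0.00774, and 26 to 693 genes called over all genes (24 to 329 higher, 2 to 457 lower). Of these fits the one lacking hypoxia replicate 4 gave 693, the one lacking normoxia replicate 2 gave 675, and the other 6 gave 26 to 50. With both of these left out, 1195 genes were called (456 higher, 739 lower), and 2 autophagy genes, Atg4d and Atg12, both lower. The replicate block gave 21 calls (20 higher, 1 lower) and 0 autophagy genes, with Atg4d at −0.38 (adjusted p = 0.113). Deviations of same-numbered libraries correlated at −0.105 to 0.043, and those of differently numbered libraries at −0.142 to 0.135. With so few libraries, these values cannot show whether same-numbered libraries were paired. The DESeq2 test gave 1008 calls (384 higher, 624 lower), and an adjusted p under 0.1 gave 1058 (384 higher, 674 lower), each with 1 autophagy gene lower. Library size alone gave 342 lower. Flcn was not called without a filter (adjusted p = 0.0538).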

Other observations

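Of the 30 further autophagy genes, the 5 with the smallest p are given here, a choice made after their values were seen. Plekhm1, an adaptor for the tethering complex, was at 26.7, 27.6, 27.1 and 35.0 CPM in hypoxia and at 35.5, 40.4, 41.2 and 34.6 CPM in normoxia (log2 −0.38; edgeR quasi-likelihood, adjusted p = 0.086). Hypoxia replicate 4 alone of its group reached the normoxia range, and without it Plekhm1 had a log2 change of −0.48 (adjusted p = 0.0184). Snap29 was at 18.4 to 23.9 CPM in hypoxia and 24.9 to 27.1 CPM in normoxia, with no overlap.

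Stx17, the syntaxin that pairs with SNAP29, was at 39.7, 39.9, 39.5 and 39.5 CPM in hypoxia and at 36.5, 33.3, 36.9 and 34.0 CPM in normoxia (log2 0.17, adjusted p = 0.117). Vps11, a core subunit of the tethering complex, was at 90.6 to 99.9 CPM in hypoxia and 83.6 to 87.7 CPM in normoxia (log2 0.16, adjusted p = 0.0981). Bcl2l1, whose product binds Beclin 1, was at 108 to 128 CPM in hypoxia and 92.7 to 105 CPM in normoxia (log2 0.24, adjusted p = 0.0816). None of the 5 was called by edgeR with all 8 libraries, while the DESeq2 Wald test called all but Stx17. Their groups did not overlap except for Plekhm1, an outcome that the choice by smallest p favours. Over all 30 genes, groups did not overlap for 4 with hypoxia higher and 4 with hypoxia lower, against 13.4% of all genes tested.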
